A study of Mus musculus with 48 samples.

Results

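Liver taken in the early subjective night, at zeitgeber time 16 h (ZT16), was compared with liver taken in the early subjective day (ZT4) in control mice, across every gene with enough counts to test. The comparison rests on 8 of the 48 libraries of the study, 4 control mice at each time, chosen by their labels alone. The 8 libraries from Bmal1 knockout mice of the same times were then used to ask whether the genes that differed in control liver also differed without Bmal1. All mice were male C57BL/6 animals of 4 to 6 months, and liver poly-A RNA was sequenced from each mouse on its own. Control mice, labelled WT, were littermates that carried the floxed Bmal1 f/f alleles without Cre. Knockout (KO) mice were Bmal1 f/f with EsrCre, a Cre recombinase that tamoxifen activates in all tissues. Both genotypes were gavaged with 5 mg tamoxifen a day for 5 days, were placed in constant darkness 7 days later, and were killed in the dark after 36 h, over a series of 6 times. Every KO mouse carried Cre and no control did, so an effect of Cre cannot be told apart from the loss of Bmal1. In each of these 4 groups 3 mice were group-housed and 1 lived alone. The ZT4 mice came from one set of cages and the ZT16 mice from another, so cage set and time cannot be told apart. At each time a pair of control mice shared a cage, and the third group-housed control shared one with a KO mouse.

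The liver clock is a loop of transcription factors. BMAL1, the product of Arntl, binds with CLOCK or NPAS2 to E-box elements and drives its own repressors, the period and cryptochrome proteins, together with the nuclear receptors REV-ERBα and REV-ERBβ (Nr1d1 and Nr1d2), which repress Arntl and other genes through ROR elements. Liver transcripts also follow daily cues that reach the organ from outside, among them feeding, body temperature and glucocorticoids. A contrast between day and night therefore holds both kinds of rhythm, and the KO mice were sampled at the same times. Cre was activated in all tissues of the KO mice. Loss of the liver's own clock and altered cues from other tissues therefore cannot be told apart.

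Total counts were 33562272 to 33949815 in the 16 libraries of the 4 groups as deposited. Levels are given in CPM, a gene's count relative to the scaled total of its library. Each library had a mean correlation of 0.985 to 0.990 with the others of its group on the log2 scale. Summed levels of 7 hepatocyte markers were high in all 16 libraries, from 17900 to 29500 CPM, and 1 of the 7, Tat, was higher at ZT16 in WT. Among markers of other cells, 3 of 8 endothelial genes rose (Lyve1, Oit3 and Tek) and 3 of 7 cholangiocyte genes rose (Krt19, Krt7 and Sox9). Over all tested genes 10.4% were higher at ZT16 in WT. The endothelial count was 1 without mouse 3 of ZT4 or mouse 29 of ZT16 and with total-count scaling, and the cholangiocyte count was 1 without mouse 29. Of 2 exocrine pancreas genes, Cela2a was lower at ZT16 (-1.89, adjusted p = 0.000817), and the summed level of the 2 was 32.3 to 54.1 CPM at ZT4 and 19.5 to 35.5 CPM at ZT16. By contrast, none of 9 Kupffer cell or macrophage, 8 stellate, 9 lymphocyte, 6 neutrophil or 6 erythroid genes was called by edgeR, DESeq2 or limma voom; 2 lymphocyte genes and 0 of the others had an unadjusted p under 0.05. The summed endothelial level was 373 to 424 CPM at ZT4 and 439 to 529 CPM at ZT16 in WT; the summed cholangiocyte level was 66.4 to 84.2 and 63.7 to 99.5 CPM. Lymphocyte markers summed to 10.9 to 16.3 CPM at ZT4 and 8.93 to 11.5 CPM at ZT16, and erythroid markers to 45.8 to 132 and 42 to 92.3 CPM. In KO the erythroid sum was 59.3 to 96.2 CPM at ZT4 and 33.7 to 43 CPM at ZT16, without overlap, with a median log2 fold change of -1.60 and 4 of 6 genes at an unadjusted p under 0.05. Over all genes 9.50% had such a p in KO. The 9 Kupffer cell genes were all negative in KO (median -0.20), none at an unadjusted p under 0.05. In pieces of whole liver, fewer cells of a type and less RNA per cell cannot be told apart, and the part of these markers in the results below was not tested. Saa1, an acute phase protein, reached 8150 CPM in WT mouse 29 of ZT16, against 163 to 181 CPM in the other 3 mice of that group. Control mice weighed 29.2 g ± 2.06 at ZT4 and 30.8 g ± 2.63 at ZT16 (SD, n = 4 each; exact two-sided permutation p = 0.486, where the smallest p possible is 0.0286).

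In control liver 3029 of 14836 genes (20.4%) differed between the times by edgeR's quasi-likelihood test at a Benjamini-Hochberg adjusted p under 0.05, the threshold for every call here. Of these, 1547 (10.4%) were higher at ZT16 and 1482 (9.99%) were lower. These shares over all genes are the background for the WT counts of gene list members given here. The differences were mostly small: 230 genes (1.55%) were called and at least 2-fold higher at ZT16, and 251 (1.69%) were called and at least 2-fold lower. The median log2 fold change of the higher genes was 0.51 and that of the lower genes was -0.50. The 4 values of one time lay wholly above the 4 of the other for 3500 genes (23.6% of all tested), among them 2439 of the 3029 called. With libraries scaled by total counts in place of TMM factors, which moved the median of all genes from 0.00 to -0.06, the called genes split into 1083 higher and 1959 lower, 35.6% higher against 51.1%.

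Most called genes had their highest mean level at the sampled time or a neighbouring one. Among the 6 sampled times, 1031 of the 1547 genes higher at ZT16 had their highest WT mean at ZT16, 346 at ZT12 and 98 at ZT20, while 2778 of all 14836 genes (18.7%) had it at ZT16. Genes lower at ZT16 were split over the day: 628 had their highest mean at ZT4, 580 at ZT8 and 209 at ZT0. The ZT4 and ZT16 values chose these genes, so their absence at the opposite time is fixed, and the spread over the remaining times is a description. Nearly as many of the daytime genes thus stood highest 4 h after the sampled day point as at it.

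**Figure D1:**
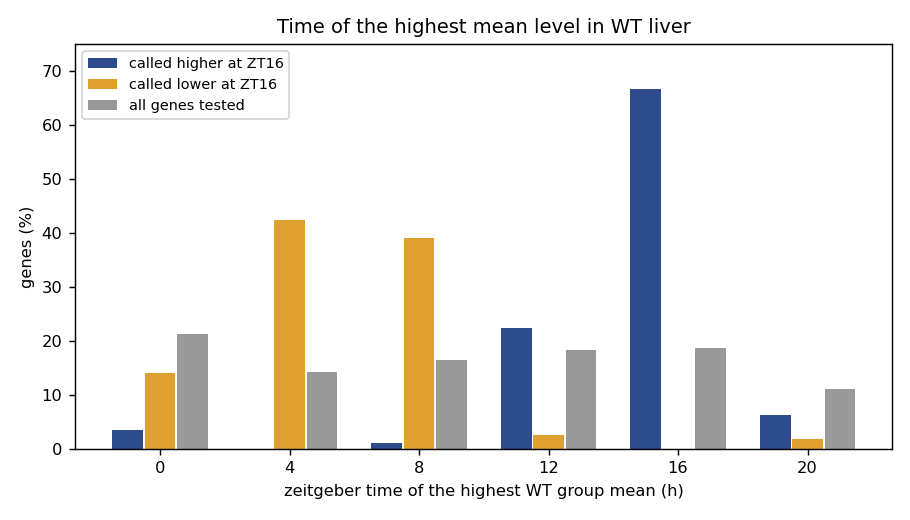
Bars give the percentage of genes whose highest WT group mean fell at each of the 6 zeitgeber times (x axis, hours), for the 1547 genes higher at ZT16, the 1482 lower at ZT16 and all 14836 tested. The night genes gather at ZT16, with 1031 genes, and the day genes are divided between ZT4, with 628, and ZT8, with 580.

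Clock genes differed strongly between the times, and in both directions. Of 15 E-box driven clock genes measured, 8 were higher at ZT16 and 3 were lower; of 5 clock genes under repression by the REV-ERBs, 2 were higher. Nr1d1 (ENSMUSG00000020889, chromosome 11, 98629246 to 98636647 in mm9) stood at 148, 130.4, 119 and 144 CPM in the 4 control mice of ZT4 and at 2.25, 2.52, 1.32 and 3.38 CPM in those of ZT16. Every ZT4 mouse was far above every ZT16 mouse, and the log2 fold change was -5.83 ± 0.79 (SE; adjusted p = 1.26e-06), a 56.9-fold fall. Its partner Nr1d2 fell from 86.8, 107, 89.5 and 141 CPM to 20.4, 24.8, 17.2 and 28.6 CPM (-2.22 ± 0.36, adjusted p = 2.05e-05). Dbp, a PAR bZIP activator of output genes, gave 23.8, 23, 11.7 and 84.5 CPM at ZT4 and 3.35, 3.93, 2.33 and 3.69 CPM at ZT16 (-3.42 ± 0.86, adjusted p = 0.0036). Mouse 8, the individually housed one, had the highest Dbp of the ZT4 mice, and all 4 were above the ZT16 mice; with group-housed mice only the change was -2.61 (adjusted p = 0.058).

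Per2 and both cryptochromes were higher in the early night. Per2 (ENSMUSG00000055866, chromosome 1, 93312561 to 93355907), a period repressor, rose from 11.9, 7.33, 5.10 and 13.2 CPM to 61.8, 61.7, 59.3 and 59.7 CPM (2.69 ± 0.42, adjusted p = 1.1e-05). Cry1 (ENSMUSG00000020038, chromosome 10, 84594447 to 84647799), the cryptochrome that holds BMAL1 and CLOCK inactive late in the cycle, rose from 7.15, 11.3, 11 and 6.45 CPM to 54.1, 59, 53.4 and 51.5 CPM (2.60 ± 0.40, adjusted p = 9.75e-06). Neither gene overlapped between the times, and the 4 night values of each lay close together. Cry2 rose less, by 0.50 ± 0.10 (adjusted p = 0.000478), also without overlap. Per1 gave 3.31, 9.88, 4.16 and 14.1 CPM and 16.2, 14, 20.9 and 28.1 CPM, so that mouse 8 of ZT4 and mouse 28 of ZT16 overlapped; its rise of 1.33 ± 0.49 (adjusted p = 0.0496) was not called when any 1 of 7 of the 8 control mice was left out (adjusted p from 0.0506 to 0.157, the exception being mouse 8 of ZT4). Per3 differed by 0.67 ± 0.46 (adjusted p = 0.328).

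Other genes of the clock lists were also higher at night. Usp2, a clock-linked deubiquitinase, went from 13, 13, 7.65 and 21.6 CPM to 44.7, 49.7, 48.2 and 35 CPM (1.69 ± 0.33, adjusted p = 0.000277), and Wee1, a mitotic inhibitor kinase, from 1.45, 1.21, 2.02 and 3.19 CPM to 7.89, 7.13, 5.31 and 8.28 CPM (1.86 ± 0.35, adjusted p = 0.000142). Every night mouse was above every day mouse for both. Bhlhe40 and Hlf rose by 0.94 and 0.45 (adjusted p = 0.0162 and 0.00799); the call of Bhlhe40 ended without mouse 3 or 4 of ZT4 or mouse 29 of ZT16 (adjusted p = 0.06, 0.0543 and 0.0704) and that of Hlf without mouse 2 of ZT4 (adjusted p = 0.0525). Nfil3, a repressor that competes with DBP, rose by 1.03 ± 0.27 (adjusted p = 0.00502). Timeless rose by 0.81 (adjusted p = 0.00276). Bhlhe41, Gm129 and Tef were not called, with log2 fold changes of -1.16, 0.22 and 0.23.

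The genes of the BMAL1 arm were not called between these 2 times. Arntl gave 23.9, 19.5, 23.7 and 5.79 CPM at ZT4 and 20.9, 36.6, 33.8 and 33.7 CPM at ZT16 in control mice (0.78 ± 0.47, adjusted p = 0.256), with mouse 8 of ZT4 lowest and the groups overlapping. In KO mice it gave 17.5, 4.60, 13.8 and 17.6 CPM and 16.8, 6.93, 23.3 and 18.6 CPM; the deletion removes only part of the gene, so these counts do not check it. Clock differed by 0.18 and Npas2 by -0.43 in control mice (adjusted p = 0.63 and 0.675).

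**Figure D2:**
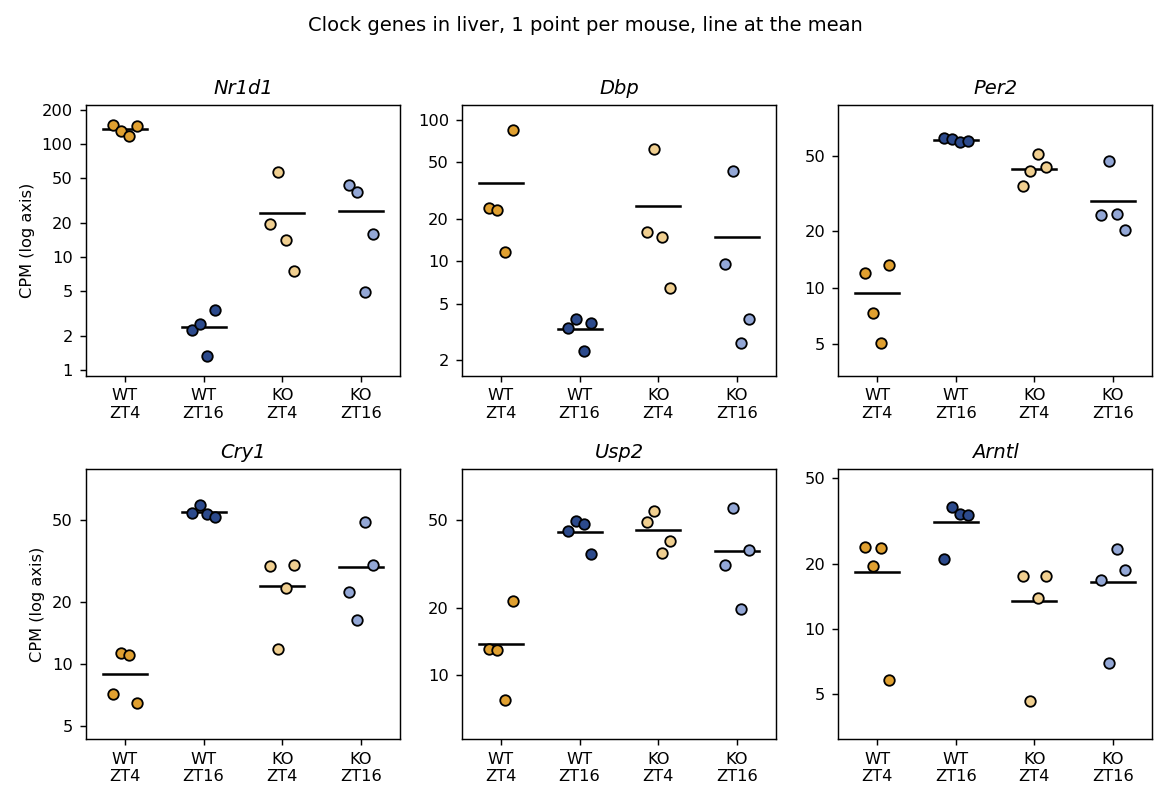
Each point is 1 mouse and each line a group mean, in CPM on a log axis, for 6 clock genes in WT and KO liver at ZT4 and ZT16 (4 mice each). In WT, Nr1d1 and Dbp fall and Per2, Cry1 and Usp2 rise without overlap, while all 6 genes overlap between the times in KO.

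The promoters of 2 clock genes called in WT are printed because their window, the 250 bases before the RefSeq transcription start, held the E-box letters CACGTG, the site to which BMAL1 and CLOCK bind. They are chr10:85185055-85185304 (minus strand) for Cry1 and chr11:69098699-69098948 (plus strand) for Per1 in GRCm38.p6, 5′ to 3′ along the gene, with the E-box in capitals, 60 to 55 bases before the start in Cry1 and 166 to 161 in Per1.
Cry1: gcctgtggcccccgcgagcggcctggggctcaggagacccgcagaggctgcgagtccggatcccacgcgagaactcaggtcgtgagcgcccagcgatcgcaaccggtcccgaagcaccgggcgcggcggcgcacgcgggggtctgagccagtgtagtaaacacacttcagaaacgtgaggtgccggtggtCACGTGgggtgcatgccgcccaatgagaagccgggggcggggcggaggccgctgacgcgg
Per1: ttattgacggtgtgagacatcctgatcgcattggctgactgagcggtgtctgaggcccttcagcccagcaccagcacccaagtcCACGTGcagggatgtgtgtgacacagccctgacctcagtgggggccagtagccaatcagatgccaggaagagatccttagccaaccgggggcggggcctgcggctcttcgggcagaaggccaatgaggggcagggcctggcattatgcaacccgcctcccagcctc
Both genes rose at ZT16. Of 11176 distinct tested genes with a window, 9.52% held the E-box letters, which read the same on both strands, in at least 1 window. The share was 11.5% of 1245 genes higher at ZT16 and 11.2% of 1163 genes lower. Among the E-box clock genes with a window 4 of 11 held it (Bhlhe41, Gm129, Per1 and Tef). The D-box (TTATGTAA or TTACGTAA) was found for 0.868% of all these genes, 1.12% of the higher and 0.774% of the lower. For the cyclic AMP element TGACGTCA the shares were 2.90%, 3.45% and 2.41%. The ROR element, AANT followed by AGGTCA, was found for 18 of all these genes (0.161%), 2 of the higher and none of the lower. Both strands were searched for each.

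Chaperones of the cytosol and mitochondria rose as a group at ZT16. Of 29 heat shock and chaperone genes 24 were higher and none lower, with a median log2 fold change of 0.68 against 0.00 over all genes. Hsp90aa1 (ENSMUSG00000021270, chromosome 12, 111928815 to 111940938), the inducible HSP90, stood at 149, 174, 121 and 105 CPM at ZT4 and 506, 544, 463 and 498 CPM at ZT16 (1.87 ± 0.21, adjusted p = 5.98e-08). Hsph1, a nucleotide exchange factor for HSP70, went from 37.7, 32.9, 25 and 25.5 CPM to 143, 122, 121 and 125 CPM (2.08 ± 0.28, adjusted p = 1.01e-06). All night values of both genes were above all day values, by wide margins. Hspa8, the constitutive HSP70, rose by 0.95 ± 0.20, and Stip1, which links HSP70 to HSP90, by 1.15 ± 0.15 (adjusted p = 0.000695 and 1.01e-06). The mitochondrial chaperonin genes rose less, Hspd1 by 0.44 ± 0.09 and Hspe1 by 0.64 ± 0.12 (adjusted p = 0.000382 and 0.000164). Hsf1, whose product drives heat shock genes, was level at 15.9, 15, 15.1 and 14.6 CPM and 15, 15.6, 15.3 and 14.8 CPM (0.00 ± 0.11, adjusted p = 0.998). How reads that match several genes were counted is not given in the sources used here, so levels of chaperone genes with near-identical pseudogenes are uncertain.

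A heat shock element was searched on both strands as the blocks GAA, TTC and GAA or TTC, GAA and TTC with NN between neighbouring blocks. It was found for 2 of 25 chaperone genes with a window, Hspd1 and Hspe1, and for 0.447% of all genes with a window. Whether the windows of these 2 genes overlap and hold the same site was not examined, so they may not be separate sites. A stretch of 30 bases of the Hspe1 window, chr1:55088053-55088082 (plus strand, GRCm38.p6), is printed to show it; the capitals mark 2 overlapping matches, 89 to 72 bases before the start.
Hspe1: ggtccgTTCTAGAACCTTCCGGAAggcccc
The gene's 4 day values were 129, 131, 116 and 132 CPM and its 4 night values 212, 223, 186 and 172 CPM, with no overlap. In KO the values were 142, 129.9, 144 and 124 and 109, 131, 137 and 131 CPM, which overlapped.

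RNA binding proteins and splicing factors split. Of 16 on the list of cold-inducible RNA binding proteins and splicing factors, 6 were higher at ZT16 and 4 lower. Cirbp, the cold-inducible RNA binding protein, fell from 25.4, 25.7, 25 and 30.1 CPM to 10.7, 10.7, 7.86 and 9.49 CPM (-1.46 ± 0.26, adjusted p = 9.61e-05), with no overlap. Rbm3, the other classic cold-inducible gene, differed by 0.00 ± 0.15 (adjusted p = 0.999), with 58.2, 42.6, 48.2 and 49.2 CPM against 58, 46.9, 52.8 and 40.5 CPM. The SR splicing factors moved apart: Srsf5 fell by 1.07 and Srsf3 rose by 0.75 on the log2 scale (adjusted p = 2.35e-06 and 3.24e-05). Hnrnpl, a splicing regulator not on that list, stood at 109, 125, 126 and 114 CPM and 62.4, 65.8, 65.6 and 64 CPM. Its fall of 0.88 on the log2 scale had an SE of 0.07 (adjusted p = 2.53e-11).

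Genes of protein folding and export in the endoplasmic reticulum (ER) were higher in the early night. Of 28 ER chaperone and unfolded protein response genes 19 rose and 1 fell (median 0.72), and of 29 coat, signal peptidase and translocon genes 19 rose and none fell (median 0.37). Hspa5 (ENSMUSG00000026864, chromosome 2, 34627490 to 34632051), the ER chaperone BiP, went from 681, 701, 585 and 738 CPM to 1759, 1518, 2409 and 2094 CPM (1.52 ± 0.23, adjusted p = 8.9e-06). Creld2, an ER protein induced by unfolded proteins, rose 5.41-fold, from 22.4, 45.9, 21.6 and 23.5 CPM to 109, 75.6, 221 and 208 CPM (2.43 ± 0.40, adjusted p = 2.31e-05). Neither overlapped between times, and mouse 3 was the highest of the day mice for Creld2. Pdia4, a disulfide isomerase, rose by 1.13; P4hb, another isomerase, rose by 0.51 from a mean of 1724 to 2451 CPM. Copg, a COPI coat subunit, rose by 0.86 and Lman1, a cargo receptor for export from the ER, by 0.67. The gene that fell was Trib3, a pseudokinase induced by ATF4 and CHOP, from 10.2, 13.4, 11.7 and 20.4 CPM to 1.89, 1.83, 2.11 and 2.48 CPM (-2.74 ± 0.42, adjusted p = 1.03e-05).

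Genes for building ribosomes rose, and genes for the ribosome's own proteins were not called. Of 33 ribosome biogenesis and RNA polymerase I genes 19 were higher at ZT16 and none lower (median 0.40); without mouse 28 of ZT16 the count was 8. Rrp12, a processing factor, rose by 1.41 ± 0.25 and Mybbp1a, a nucleolar protein, by 0.99 ± 0.13 (adjusted p = 7.64e-05 and 5.53e-07). None of 41 ribosomal protein genes was called in WT by edgeR, DESeq2 or limma voom, with 0 at an unadjusted p under 0.05, 37 of 41 positive and a median of 0.10. In KO the median was 0.21, with 40 positive, 15 of 41 at an unadjusted p under 0.05, and none called by those 3 tools. Over all genes 9.50% had such a p in KO, 4.06% being higher at ZT16. This list thus had more genes with such a p in KO than in WT. Of 20 transfer RNA synthetase genes 9 rose and 1 fell; without mouse 29 of ZT16, 5 rose. None of 26 oxidative phosphorylation genes was called by the 3 tools (median 0.03, with 0 at an unadjusted p under 0.05).

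Both enzymes of polyamine synthesis described here rose. Odc1 (ENSMUSG00000011179, chromosome 12, 17551679 to 17558308), the rate-limiting enzyme of polyamine synthesis, stood at 62.3, 55.8, 48.7 and 48.3 CPM at ZT4 and 161, 192, 180.4 and 159 CPM at ZT16 (1.69 ± 0.15, adjusted p = 1.43e-10). Srm, spermidine synthase, went from 20.1, 15.3, 14.6 and 17.6 CPM to 50.2, 52.1, 51.5 and 49.8 CPM (1.59 ± 0.22, adjusted p = 2.28e-06). Oaz1, the antizyme that targets ODC1 for breakdown, moved the other way, from 189.5, 206, 198 and 229 CPM to 167, 151, 136 and 153 CPM (-0.44 ± 0.12, adjusted p = 0.00825). All 3 genes separated the times without overlap. In the whole list of 28 polyamine and one-carbon genes 9 rose and 4 fell.

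**Figure D3:**
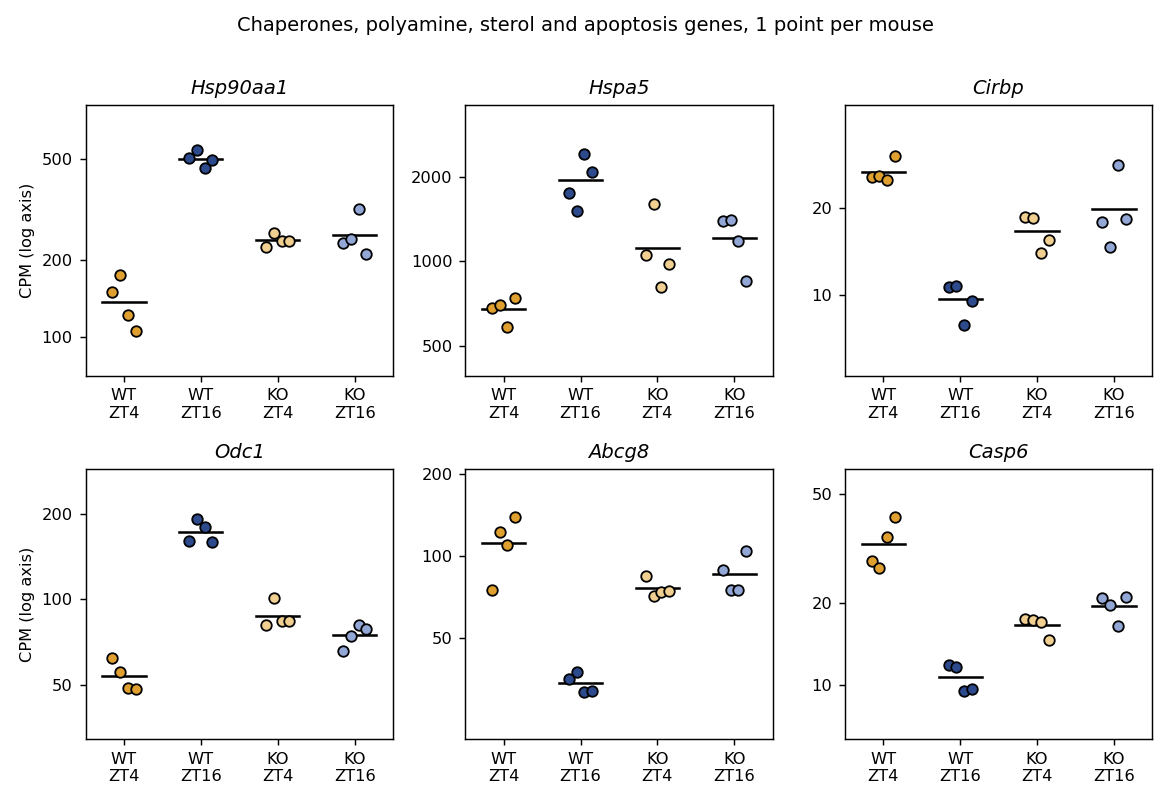
Each point is 1 mouse and each line a group mean, in CPM on a log axis, for 6 genes outside the clock loop (4 mice per group). Hsp90aa1, Hspa5 and Odc1 are higher at ZT16 in every WT mouse and Cirbp, Abcg8 and Casp6 lower, with log2 fold changes of 1.87, 1.52, 1.69, -1.46, -1.72 and -1.62, while in KO the times overlap for all of them but Odc1, whose ZT16 values lie below its ZT4 values (-0.22).

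Genes of lipid synthesis were higher at ZT16. Of 23 fatty acid synthesis genes 12 rose and 1 fell. Thrsp, a lipogenic protein, gave 532, 173, 128 and 181 CPM at ZT4 and 1214, 1224, 1129 and 1292 CPM at ZT16 (2.26 ± 0.44, adjusted p = 0.000262), with mouse 2 the highest of the day mice and no overlap. Fasn, fatty acid synthase, gave 669, 366, 275 and 397 CPM and 955, 916, 1473 and 1287 CPM (1.44 ± 0.37, adjusted p = 0.00426). Again no day mouse reached the lowest night mouse. Elovl6, a fatty acid elongase, rose by 1.16 and Srebf1, a lipogenic transcription factor, by 0.92 (adjusted p = 0.00324 and 0.0156), the second not called without mouse 4 or mouse 8 of ZT4 (adjusted p = 0.0721 and 0.0656). The gene that fell was Mlxipl, which encodes the glucose-sensing factor ChREBP (-0.57 ± 0.15, adjusted p = 0.00414). On the side of fat use, Pnpla2, the first lipase of triglyceride breakdown, fell from 95.1, 97.9, 94.4 and 122 CPM to 48.7, 43.9, 45.2 and 47.6 CPM (-1.14 ± 0.12, adjusted p = 1.77e-08). Cpt1a, which admits fatty acids to mitochondria, fell by 0.58 on the log2 scale (adjusted p = 0.00111), the only fall among 30 fatty acid oxidation and PPARA target genes, of which 2 rose. Both counts lie below the shares over all genes, 10.4% higher and 9.99% lower.

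Of 23 glucose metabolism genes 8 rose and 2 fell; the 8 became 3 to 5 without mouse 3, 4 or 8 of ZT4 or mouse 28 or 32 of ZT16. Ppp1r3b, the subunit that brings a phosphatase to glycogen, rose 4.98-fold, from 204, 138, 142 and 90.8 CPM to 721, 817, 787 and 535 CPM (2.32 ± 0.31, adjusted p = 1.06e-06). Every night mouse was above every day mouse. Gys2, liver glycogen synthase, rose by 0.51 (adjusted p = 0.00758; 0.0615 without mouse 4 of ZT4), and Phka2, a subunit of the kinase that activates glycogen breakdown, fell by 0.57 (adjusted p = 6.82e-06). Over 19 glycogen genes 6 rose and 2 fell, with 3 rising without mouse 4 of ZT4 or mouse 28 of ZT16.

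Some cholesterol synthesis genes were higher at ZT16, and sterol and bile transporters were lower. Of 24 cholesterol synthesis and uptake genes 7 were higher at ZT16 and none lower (median 0.51). Sqle, squalene epoxidase, gave 219, 139.8, 95.8 and 172 CPM and 300.3, 304, 487 and 281 CPM (1.13 ± 0.35, adjusted p = 0.0177), with mouse 29 the highest of the night mice. The counts rested on single mice: 0 members were called without mouse 3 or mouse 4 of ZT4 or without mouse 29 of ZT16, 3 without mouse 8 of ZT4, and 13 without mouse 2 of ZT4. Sqle was not called in the first 3 of these cases (adjusted p = 0.05, 0.0796 and 0.0886). The KO median of the list was 0.41, and none of its 24 genes had a called difference between genotypes.

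Of 25 bile acid and sterol transport genes, 9 were lower at ZT16 and 1 higher. Abcg8 (ENSMUSG00000024254, chromosome 17, 85075642 to 85099673), which with ABCG5 pumps cholesterol into bile, fell from 75.2, 123, 109.9 and 139.7 CPM to 35.3, 37.4, 31.7 and 31.9 CPM (-1.72 ± 0.21, adjusted p = 1.89e-07). Abcg5 fell by 1.10 (adjusted p = 8.6e-06), so both subunits of the transporter fell. Abcb11, the bile salt export pump, fell by 0.64, and Hsd3b7, an enzyme of bile acid synthesis, by 0.91 (adjusted p = 0.000389 and 7.33e-06). Nr0b2, which encodes the repressor SHP, gave 52.9, 35.1, 43 and 28.8 CPM and 10.9, 14.5, 11.1 and 22.8 CPM (-1.43 ± 0.40, adjusted p = 0.00908). Cyp7a1, the rate-limiting enzyme of bile acid synthesis, overlapped, with 221, 84.5, 35.2 and 40.1 CPM and 240.4, 169, 74.8 and 218 CPM (0.88 ± 0.45, adjusted p = 0.167); without mouse 2 of ZT4 it was called (log2 fold change 1.72, adjusted p = 0.00547).

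Other metabolic genes higher at ZT16 included targets of glucocorticoids, of which 6 of 20 rose and none fell (median 0.88, and 0.40 without mouse 29 of ZT16). Tsc22d3, which encodes GILZ, rose from 43.2, 50.3, 35.5 and 60.9 CPM to 131, 176, 106 and 156 CPM (1.58 ± 0.29, adjusted p = 0.000113), and Tat, tyrosine aminotransferase, rose by 0.98 ± 0.27 (adjusted p = 0.00872). Both separated the times. Nampt, the rate-limiting enzyme of NAD salvage, went from 75, 68.8, 79.4 and 80.0 CPM to 154, 153, 108 and 146 CPM (0.89 ± 0.16, adjusted p = 9.84e-05). Cyp2a5, a cytochrome P450, rose by 1.31 and Igf1, the liver's growth factor, by 0.45 (adjusted p = 0.00172 and 0.0066). The lists around such genes did not rise as a whole. Of 22 NAD genes 7 rose and 4 fell (median 0.02), and of 32 xenobiotic and heme genes 7 rose and 1 fell (median 0.06). Of 31 growth hormone, IGF and sex-biased genes 2 rose and 1 fell (median -0.05). Tfrc, the transferrin receptor, rose from 50.9, 24.5, 20.2 and 18.9 CPM to 145, 149, 135 and 109 CPM (2.23 ± 0.35, adjusted p = 1.11e-05), the only one of 29 acute phase and iron genes called. Without mouse 29 of ZT16, whose Saa1 stood apart, 1 gene of that list was higher and 4 were lower, and 3 were higher without mouse 27, 28 or 32 of ZT16.

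Cell cycle genes moved both ways. Of 32 cell cycle and p53 genes 11 rose and 3 fell, the 3 being Ccnb1, Ccnb2 and Cdk2. Cdkn1a, the cell cycle inhibitor p21, went from 7.94, 6.06, 6.13 and 1.52 CPM to 32.2, 30.9, 53.8 and 31.5 CPM (2.77 ± 0.52, adjusted p = 0.000159). Mcm5 and Mcm2, subunits of the replicative helicase, rose by 2.20 ± 0.37 and 1.60 ± 0.29, and Ccne2, the cyclin of entry into S phase, by 1.74 ± 0.25 (adjusted p = 2.97e-05, 0.000101 and 2.73e-06). The mitotic cyclins Ccnb1 and Ccnb2 fell by 2.65 and 2.24 (adjusted p = 0.00193 and 0.00213), from low levels of 3.49, 3.93, 12.6 and 0.686 and 2.66, 2.99, 9.32 and 1.52 CPM in the ZT4 mice. Mouse 4 of ZT4 was the highest for both, the times overlapped for Ccnb1, whose fall was not called with cage as a random block in limma voom (-1.96, adjusted p = 0.0587), and without that mouse Ccnb2 fell by 1.46 (adjusted p = 0.0502).

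Of 31 autophagy and lysosome genes 8 fell and none rose, with a median of -0.12 and 12 of 31 positive; 13 fell with total-count scaling. Gabarapl1, an ATG8 protein of the autophagosome, fell from 345, 393, 435 and 480.1 CPM to 169, 160.3, 111 and 185 CPM (-1.40 ± 0.14, adjusted p = 6.97e-09). Casp6 (ENSMUSG00000027997, chromosome 3, 129604343 to 129617021), an executioner caspase, fell from 28.4, 26.9, 34.9 and 41.3 CPM to 11.9, 11.7, 9.53 and 9.73 CPM (-1.62 ± 0.16, adjusted p = 6.97e-09). Pcbp4, an RNA binding protein, fell by 1.71 with an SE of 0.17 (adjusted p = 6.04e-09). In each of the 3 genes the lowest day mouse was well above the highest night mouse.

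**Figure D4:**
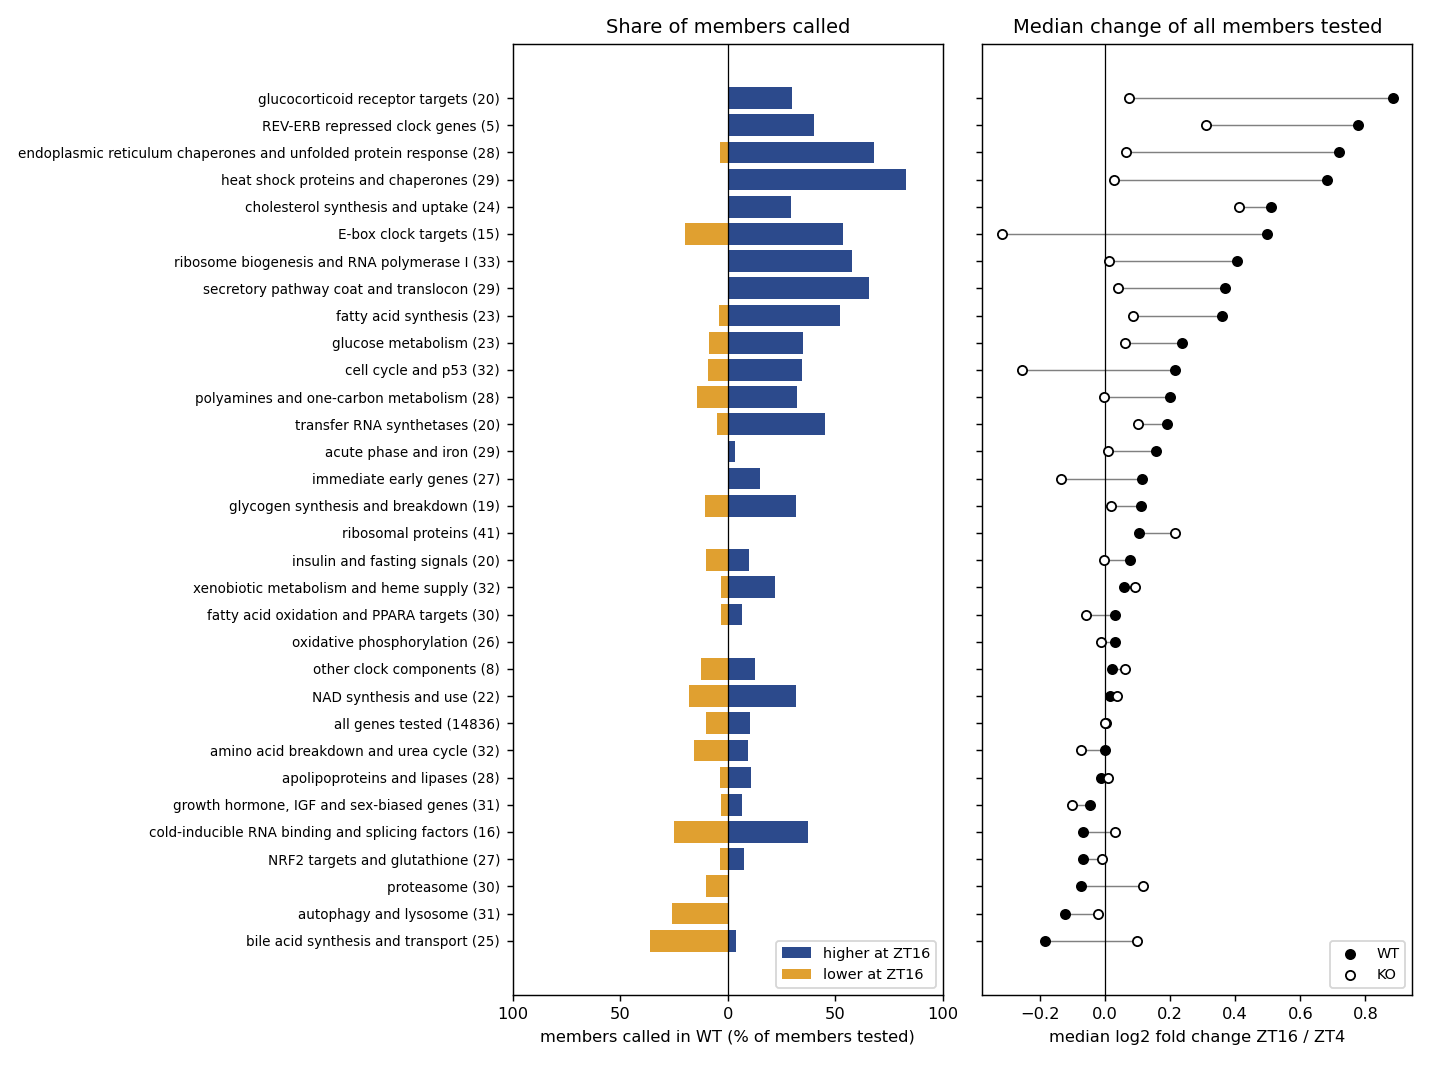
Left, the percentage of each gene list's tested members (number in brackets) called higher or lower at ZT16 in WT; right, the median log2 fold change of all tested members in WT (filled) and KO (open), with all 14836 genes as a row. Chaperone, ER, secretory and ribosome biogenesis lists have WT medians of 0.37 to 0.72 and KO medians of 0.01 to 0.06, and the cholesterol list has medians of 0.51 and 0.41.

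In KO liver the same contrast gave 2 called genes of 14836 (0.0135%), against 3029 in WT. DESeq2 called 37 and limma voom 3, and 1409 genes (9.50%) had an unadjusted p under 0.05. The 4 KO values of one time lay wholly apart from the 4 of the other for 1084 genes (7.31%), against 3500 in WT. At these 2 times the spread between mice differed little. Over the WT-called genes the median SD of log2 CPM was 0.155 and 0.153 in WT and 0.148 and 0.139 in KO at ZT4 and ZT16. The test shares its estimate of spread over all 12 groups, where this median was widest in KO at ZT12 (0.222) and narrowest in WT at ZT8 (0.132). With 16 libraries fitted, 53 genes were called in KO and 3431 in WT. With the 8 libraries of each genotype these counts were 42 and 2766. The part of spread in the KO count was not tested.

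Genes called in WT moved in their WT direction in KO about as often as against it. Of the 1547 genes higher in WT, 793 (51.3%) were also higher at ZT16 in KO, and their median KO log2 fold change was 0.00. Of the 1482 lower in WT, 688 (46.4%) were lower in KO, with a median of 0.02. Among the 230 genes at least 2-fold higher in WT, 96 (41.7%) were higher in KO. An unadjusted p under 0.05 in KO pointed the WT way in 5 of them and the opposite way in 33. Of the 251 at least 2-fold lower, 137 (54.6%) were lower in KO. There such a p pointed the WT way in 23 and the opposite way in 18. Over all 14836 genes 50.2% had a positive change in KO. An unadjusted p under 0.05 in KO was found for 328 of the 3029 (10.8%), close to the 9.50% of all genes, and it pointed the WT way in 141 and the opposite way in 187. Over all genes 602 (4.06%) had such a p and were higher at ZT16 in KO, and 807 (5.44%) were lower. Across the 3029 genes the Pearson correlation of the 2 changes was -0.12, a description over genes that are not independent replicates. The WT values chose these genes, which raises their WT change, whereas the KO mice entered only through the shared estimate of spread. The most negative KO changes among these genes, picked out here after their values were seen, were those of Serpina3c, a serine protease inhibitor (-4.95 in KO and 4.44 in WT), and Ptprn2, a phosphatase-like receptor (-3.16 and 3.91). Neither was called in KO (adjusted p = 0.268 and 0.537), and both overlapped between the times in both genotypes.

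**Figure D5:**
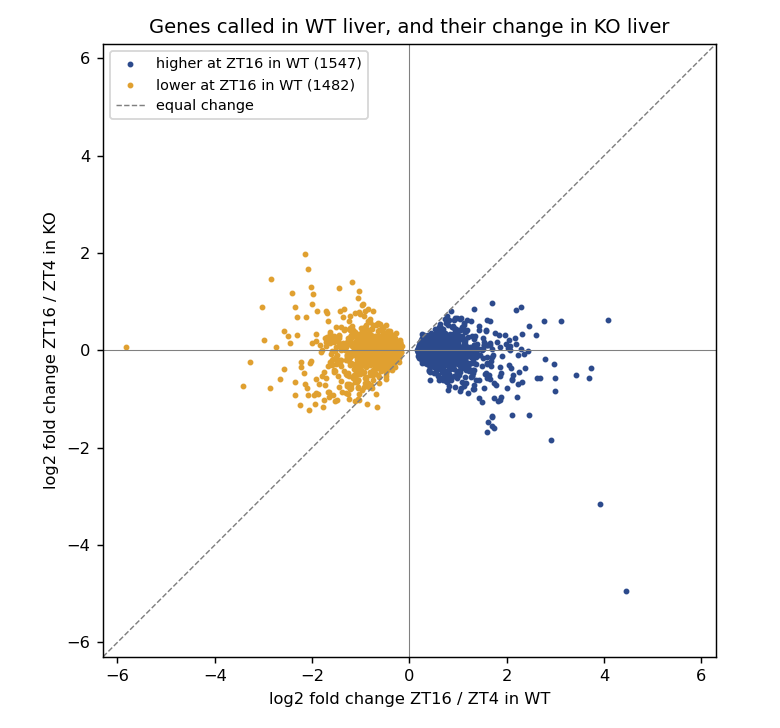
Each point is 1 of the 3029 genes called in WT, with its log2 fold change ZT16 over ZT4 in WT (x axis) and in KO (y axis); the gap around 0 on the x axis is made by the choice of genes. The points lie along the horizontal axis rather than the dashed line of equal change, with KO medians of 0.00 for the 1547 higher and 0.02 for the 1482 lower genes.

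The difference between the genotypes' changes was tested for every gene. It was called for 1450 of 14836 genes (9.77%), 719 (4.85%) with a more positive and 731 (4.93%) with a more negative change in WT. Of these, 1284 (88.6%) were also called in WT, an overlap that is favoured because the same WT values enter both tests. The difference was called for 1284 (42.4%) of the 3029 genes called in WT. Among the gene lists it was called for 16 of 29 chaperone genes, 15 of 28 ER genes, 10 of 29 secretory genes, 8 of 33 ribosome biogenesis genes and 7 of 15 E-box clock genes. It was also called for 11 of 32 cell cycle genes, 8 of 25 bile acid and sterol transport genes and 7 of 16 RNA binding and splicing genes. For the NAD and polyamine lists the counts were 7 of 22 and 7 of 28. It was called for fewer genes of some other lists with WT calls, among them 3 of 23 fatty acid synthesis genes, 3 of 23 glucose genes, 2 of 20 glucocorticoid targets, 2 of 20 transfer RNA synthetases and none of 24 cholesterol genes. In all 31 lists together, 252 of 758 genes were called in WT, against 20.4% of all genes, and none in KO by edgeR. In KO, DESeq2 called 1 of the 758 and limma voom none, with 81 (10.7%) at an unadjusted p under 0.05, against 9.50% of all genes. The lists differed in this: 15 of 41 ribosomal protein, 8 of 32 cell cycle and 7 of 32 xenobiotic genes had such a p. No gene of the chaperone, ER, ribosome biogenesis, glucocorticoid, splicing factor or oxidative phosphorylation lists had one.

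The levels at which KO genes stood differed from gene to gene. Hsp90aa1 gave 226, 255, 239 and 239 CPM at ZT4 and 233, 243, 317 and 213 CPM at ZT16 in KO (0.07 ± 0.21, adjusted p = 0.954; WT minus KO 1.80, adjusted p = 8.96e-05), between the WT day and night values. Odc1 gave 81.5, 101, 84.1 and 83.8 and 66.1, 74.5, 81.2 and 78.8 CPM (-0.22 ± 0.14, adjusted p = 0.656; WT minus KO 1.91, adjusted p = 9.56e-08), also between them, and with all 4 ZT16 mice below the ZT4 mice. Trib3, by contrast, stood at 1.79, 4.43, 1.48 and 1.86 and 2.80, 3.67, 1.98 and 1.61 CPM in KO, all nearer to the WT night than to the WT day values (WT minus KO -2.82, adjusted p = 0.00163). Ppp1r3b stood at 512, 420.1, 555 and 648 and 766, 743, 516 and 683 CPM, all above every WT day mouse (WT minus KO 1.97, adjusted p = 0.00185). Of the 3029 genes, 2428 (80.2%) had both KO means between the WT means, a count that the choice of genes with far apart WT means favours; over all genes it was 4779 (32.2%).

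Some clock genes varied among KO mice of the same time, as Dbp, Arntl and Per1 did among WT mice at ZT4. Nr1d1 gave 19.5, 56.7, 14.2 and 7.53 CPM at ZT4 and 43.7, 37.9, 4.91 and 15.9 CPM at ZT16 in KO, a range of over 7-fold within each time, and the groups overlapped throughout (0.07 ± 0.63, adjusted p = 0.985). Dbp gave 16, 61.8, 14.8 and 6.48 and 9.57, 43.5, 2.62 and 3.93 CPM (-0.73 ± 0.77, adjusted p = 0.814). KO mouse 5 of ZT4 and KO mouse 26 of ZT16 were the highest of their groups for Dbp and for Per3. Per2 gave 34.4, 41.8, 50.8 and 43.9 and 24.1, 46.8, 24.5 and 20.2 CPM (-0.56 ± 0.39), and its WT minus KO difference was 3.25 (adjusted p = 0.000179).

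The 2 genes called in KO behaved unlike each other. Fgfr2 (ENSMUSG00000030849, chromosome 7, 137305965 to 140315033), a fibroblast growth factor receptor, stood in KO at 29.5, 26.7, 26.8 and 28.3 CPM at ZT4 and 47, 41.5, 43.7 and 42.7 CPM at ZT16 (0.65 ± 0.13, adjusted p = 0.0471). In WT it stood at 38.8, 50.2, 49.1 and 62.2 and 27.7, 25.3, 29.9 and 30.7 CPM (-0.82 ± 0.13, adjusted p = 9.93e-06). Both genotypes separated the times, in opposite directions, and the difference was -1.47 (adjusted p = 1.22e-06). The deposited coordinates of Fgfr2 cover a very long stretch and the gene models are not given. Reads from other genes within that stretch therefore cannot be told apart from those of the receptor. Sap25, a component of a histone deacetylase complex, fell in KO from 3.35, 3.32, 3.13 and 3.07 CPM to 1.62, 1.28, 1.48 and 1.38 CPM (-1.16 ± 0.21, adjusted p = 0.0356) and in WT from 2.63, 2.37, 2.80 and 2.51 to 1.71, 1.23, 1.89 and 1.66 CPM (-0.67 ± 0.21, adjusted p = 0.0199), the 1 gene called in the same direction in both by edgeR with all 48 libraries. Some other fits called more genes in both genotypes. With 16 libraries fitted, 10 had the same direction and 12 opposite directions. These counts were 8 and 5 with the 8 libraries of each genotype, and 4 and 11 with the DESeq2 test. The KO call of Fgfr2 held under 9 of 27 alternatives and that of Sap25 under 17 of 27; leaving out any 1 of the 8 KO mice ended both (adjusted p from 0.0623 to 0.169 for Fgfr2 and from 0.0623 to 0.119 for Sap25). The KO call of Fgfr2 also ended without any 1 of 6 WT mice, all but mice 2 and 8 of ZT4 (adjusted p from 0.0521 to 0.0623). The WT call of Sap25 ended without mouse 4 of ZT4 or mouse 28 of ZT16 (adjusted p = 0.0552 and 0.0860).

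Cd9, a tetraspanin chosen here after its values were seen, also differed in opposite directions in the 2 genotypes. In WT it fell from 28.5, 45.3, 46.2 and 37.9 CPM to 19.7, 18.5, 20.9 and 17.7 CPM (-1.04 ± 0.25, adjusted p = 0.0025). In KO it gave 15.7, 18.5, 17.8 and 21.3 CPM and 44.7, 35.8, 52.8 and 38.1 CPM (1.23 ± 0.25, adjusted p = 0.0523 by edgeR), with no overlap; it was called under 6 of 27 alternatives (adjusted p from 0.00198 to 0.244). The genotypes' changes differed by -2.27 (adjusted p = 5.47e-05). Npas2 was low at both times in WT, at 4.49, 2.84, 3.66 and 0.746 and 2.19, 1.77, 3.05 and 1.69 CPM. In KO it gave 1.93, 1.05, 1.51 and 1.92 CPM at ZT4 and 7.12, 3.28, 20.0 and 8.89 CPM at ZT16, again with no overlap (2.61 ± 0.62, adjusted p = 0.122 by edgeR; WT minus KO -3.05, adjusted p = 0.019). The KO change of Npas2 was called under 2 of 27 alternatives, the DESeq2 test and the fit of 16 libraries (lowest adjusted p = 0.0345). Mcm5 gave 7.87, 4.89, 12.6 and 18.4 and 5.59, 7.13, 3.58 and 6.19 CPM in KO (-0.96 ± 0.36, adjusted p = 0.336), where WT rose, and its difference was 3.16 (adjusted p = 7.87e-05). Cyp2a5 gave 885, 952, 616 and 538 and 373, 535, 396 and 432 CPM in KO (-0.79 ± 0.30, adjusted p = 0.37), with all 4 ZT16 mice below all 4 ZT4 mice, the reverse of WT (difference 2.10, adjusted p = 0.00113).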

How the data were processed

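Poly-A RNA from the liver of each of 48 mice was made into TruSeq libraries with 13 cycles of PCR and sequenced with 2 libraries to a lane, per the labels' protocols. The authors deposited 1 table of raw counts per gene for 23732 genes on mm9; CASAVA and STAR 2.4.0f1 are named in the submitters' processing notes, and the gene models, the handling of strand and of reads matching several places, and the step that gave all libraries nearly the same total are not given in the sources used here. Overlapping and antisense genes therefore cannot be told apart.

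From these counts, genes were kept by filterByExpr with a minimum count of 10 (14836 genes, 99.98% of counts), scaled by TMM factors and fitted with edgeR 4.0.16 in R 4.3.3, using all 48 libraries in 12 groups (36 residual degrees of freedom), glmQLFit and glmQLFTest. Benjamini-Hochberg adjusted p-values cover all tested genes. Standard errors are the log2 fold change divided by the square root of F. CPM values use TMM-scaled library sizes. DESeq2 1.42.0 and voom in limma 3.58.1 were alternatives, as were other scalings, filters, sets of libraries, body weight, a cage block and leaving out each mouse. Promoters came from RefSeq GRCm38.p6, matched by symbol for 11251 genes, and no mm9 coordinate was converted. The fit was tested on simulated counts.

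Members and gene lists were chosen with earlier results of these data known. Named genes came from a rule that took clock genes, then up to 15 genes in each direction with the largest change, no overlap and at least 5 CPM, the called genes with the highest levels, those with the smallest p for the genotype difference, those called in KO, and for each list the members with the smallest p and the highest uncalled ones, reduced to the genes described; Hspa8, Hspd1, Hspe1, Hsf1, Cirbp, Rbm3, Oaz1, Fasn, Mlxipl, Srebf1, Nr0b2, Cyp7a1, Ccnb1, Ccnb2, Cd9, Krt19, Lyve1 and Saa1 were added after their values were seen. A few genes are not reported here.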

Additional observations from a re-analysis of the deposited data

Results flagged for a closer look

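Among 328 groups of 4 mice tested over the named genes, 28 held 1 mouse whose gap to its nearest neighbour was too large a share of the group's range by Dixon's test at the 95% level; chance alone gives about 1 in 20 such groups. WT ZT4 mouse 8 stood apart for Dbp (84.4 CPM), Bhlhe41 (14.7 CPM), Cirbp (30.1 CPM), Pnpla2 (122 CPM) and Saa1 (1970 CPM). KO ZT16 mouse 26 stood apart for Dbp (43.5 CPM), Per2 (46.8 CPM), Per3 (38.1 CPM), Tef (201 CPM), Wee1 (9.91 CPM), Cyp7a1 (217 CPM) and Tfrc (79.7 CPM). WT ZT16 mouse 28 stood apart for Timeless (6.77 CPM). WT ZT16 mouse 27 stood apart for Hspa8 (1830 CPM). KO ZT4 mouse 6 stood apart for Hspd1 (630.0 CPM) and Gys2 (116 CPM). WT ZT4 mouse 3 stood apart for Creld2 (45.9 CPM). KO ZT16 mouse 31 stood apart for Pdia4 (203 CPM). KO ZT4 mouse 5 stood apart for Trib3 (4.43 CPM) and Odc1 (101 CPM). WT ZT4 mouse 2 stood apart for Thrsp (532 CPM). WT ZT16 mouse 29 stood apart for Sqle (487 CPM), Cdkn1a (53.8 CPM) and Saa1 (8150 CPM). KO ZT4 mouse 7 stood apart for Hsd3b7 (377 CPM) and Casp6 (14.6 CPM). KO ZT16 mouse 30 stood apart for Mcm2 (4.72 CPM). KO ZT16 mouse 25 stood apart for Igf1 (642 CPM).

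The change from ZT4 to ZT16 differed between genotypes by edgeR's interaction test (adjusted p under 0.05) for 1450 genes, more positive in WT for 719 and more negative for 731, 54 of them named here. The WT minus KO differences in log2 fold change that were positive were Per2 3.25, Cry1 2.29, Cry2 0.75, Wee1 2.39, Usp2 2.0, Timeless 1.18, Hsp90aa1 1.80, Hsph1 2.07, Hspa8 0.95, Stip1 1.01, Hspe1 0.73, Hspd1 0.40 and Srsf3 0.73. Further positive differences were Creld2 2.45, Hspa5 1.41, Pdia4 0.89, Copg 0.78, Lman1 0.71, P4hb 0.47, Rrp12 1.51, Mybbp1a 0.96, Odc1 1.91, Srm 1.86, Thrsp 2.70, Ppp1r3b 1.97 and Elovl6 1.42. Further positive differences were Cyp2a5 2.10, Nampt 1.24, Cdkn1a 2.18, Mcm5 3.16, Mcm2 2.16, Ccne2 2.41, Tfrc 2.93, Igf1 0.67 and Lyve1 1.29. The negative ones were Nr1d1 -5.90, Nr1d2 -1.88, Npas2 -3.05, Cirbp -1.70, Srsf5 -1.02, Hnrnpl -0.97, Trib3 -2.82, Oaz1 -0.52, Phka2 -0.55, Pnpla2 -1.07, Abcg5 -1.02, Abcg8 -1.89 and Abcb11 -0.93. Further negative differences were Hsd3b7 -1.20, Casp6 -1.85, Gabarapl1 -1.53, Pcbp4 -1.81, Fgfr2 -1.47 and Cd9 -2.27.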

How the results depend on the processing

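Of 71 named genes called in WT, 58 were called under every alternative run and none changed direction. The WT counts ranged from 1107 to 1545 higher and from 1140 to 1536 lower when each mouse was left out, and with group-housed mice only they were 1078 and 1092. In KO, leaving out each mouse gave 0 to 1 genes higher and 0 to 1 lower. KO calls were 0 higher with DESeq2 size factors and 0 with total counts; 0 higher and 0 lower with the cage block and with group-housed mice only; 2 higher with voom; 3 higher with the stricter filter; 3 higher and 3 lower with body weight; 19 and 18 with the DESeq2 test; 24 and 29 with 16 libraries fitted; and 13 and 31 with 8. The genotype difference was called for 363 genes more positive and 403 more negative in WT with group-housed mice only, and for 514 to 767 and 537 to 779 when each mouse was left out. The cause of these shifts was not tested. With group-housed mice only, which leaves 3 a group, the named genes no longer called were Dbp (adjusted p = 0.058), Per1 (0.0611), Nfil3 (0.0915), Oaz1 (0.0559), Srebf1 (0.0602), Sap25 (0.0607) and Lyve1 (0.0625). No paired analysis was possible because no replicate number and no cage is shared between the 2 times; cage, which joins some mice of the same time, was fitted as a random block (correlation 0.081).

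The deposited totals are close to equal, but the step that made them so is not described, so the sequencing depth of each library is not known. Among the WT changes given with an SE here, those of Dbp and Nr1d1 had the widest. With 4 mice a group, a KO change that was not called is not shown to be absent.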
